A study of Caenorhabditis elegans with 16 samples.

Results

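The change from the first (L1) to the third (L3) larval stage of Caenorhabditis elegans was described in 8 of the 16 small-RNA arrays of the study. The 4 L3 arrays and the 4 L1 arrays were chosen by their sample titles and paired by the immunoprecipitation (IP) they came from, and all 96 probes of every array were used. In the ALG-1 IP, an antibody against ALG-1 was used on animals labelled wild-type N2, the standard laboratory strain, whereas the methods of the study describe a transgenic strain for it. In the ALG-2-Tag IP, an antibody against GFP was used on alg-2 mutants that carried ALG-2 fused to GFP, expressed from its own promoter on an integrated transgene. The ALG-1 control IP used the ALG-1 antibody on alg-1 (gk214) mutants, and the ALG-2-Tag control IP used the GFP antibody on wild-type N2 animals, which carry no GFP. All animals were grown on plates at 20 °C and synchronised from embryos obtained by bleaching, and none was treated further.

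ALG-1 and ALG-2 are the Argonaute proteins of the worm that carry most of its microRNAs. A mature microRNA sits in the Argonaute and guides it to complementary sites in target messenger RNAs, which are then translated less or degraded. Worm larvae are known for microRNAs that time development, among them lin-4, which rises early in larval life, and let-7, which rises late. An IP of an Argonaute followed by hybridisation to an array of microRNA probes measures which microRNAs it carried, and a control IP measures what the antibody and beads bring down without the target. In the files the probes are only numbered, from emc01 to emc96, and are not paired with microRNA names, so no value below can be tied to lin-4, let-7 or any other microRNA, and no probe sequence is shown.

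There was 1 array per IP and stage. The 4 IPs therefore stand in for replicates of the stage, and every p-value measures only how alike they were, not the spread between repeated IPs. Each array held 768 spots, with 8 spots per probe, 2 in each of 4 print blocks. Intensities are the deposited values, the median of a spot's pixels minus its local background. For comparisons they were corrected further for background, put on the log2 scale and averaged over the spots of a probe. A probe is called detected on an array if the mean, over its spots, of the share of pixels brighter than the local background plus 2 SD was at least 50%. The arrays labelled ALG-1 control IP, from animals without ALG-1, were the brightest at both stages, above those labelled ALG-1 IP. The L1 profile of the ALG-1 IP was also more like that of the ALG-2-Tag control IP (Spearman's rho of 0.86 over the 96 probes) than that of the ALG-2-Tag IP (0.15). The labels are used as given. They name the antibody and strain. Labels exchanged in the same way at both stages would not alter the direction of a change within an IP. A label exchanged at a single stage would alter the pairs, and the labels enter each comparison between IPs. The L1 and L3 arrays of an IP were scanned at the same end of a slide, so they lay on different slides, and slide and stage cannot be told apart. The IPs were scanned on 1 day and the controls on another.

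Signal was lower at L3 than at L1 in the deposited intensities of 3 of the 4 IPs, and in all 4 after the further background correction, by very different amounts. With the ALG-1 IP the median probe intensity was 230.0 at L1 and 85.8 at L3. In the ALG-1 control IP it was 1654.5 at L1 and 1049.8 at L3, and in the ALG-2-Tag control IP it was 438 at L1 and 90.3 at L3. The ALG-2-Tag IP was the exception on this scale, with 58.5 at L1 and 72.8 at L3. On the log2 scale, after the further background correction, the median probe of an array was lower at L3 with 4 of 4 IPs. It lay at 7.82 and 7.02 in the ALG-1 IP (a difference of -0.80), at 7.36 and 7.24 in the ALG-2-Tag IP (-0.12), at 10.67 and 9.94 in the ALG-1 control IP (-0.72) and at 8.28 and 7.05 in the ALG-2-Tag control IP (-1.23). The mean difference was -0.72 ± 0.46 (SD, n = 4 IPs), with an exact two-sided permutation p of 0.125 over the pairs, which is the smallest that 4 pairs can give. The L1 arrays spanned 7.36 to 10.67 and the L3 arrays 7.02 to 9.94, so that the stages overlapped and the order appeared only within IPs.

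The direction of the fall was shared by controls and Argonaute IPs, but its size was not. From the spots of print blocks 1 and 2 alone it was -0.12 in the ALG-1 IP and -0.09 in the ALG-2-Tag IP. There it was -0.42 in the ALG-1 control IP and -1.24 in the ALG-2-Tag control IP. From blocks 3 and 4 it was -1.52, -0.11, -0.80 and -1.23 in the same order. Over all spots the fall averaged -0.46 over the Argonaute IPs and -0.98 over the control IPs, which are also the scan days. Between L2 and L4, which share no array with this comparison, the corresponding differences were 0.04, 0.83, -1.83 and -0.80 in the same order of IPs. Their mean was -0.44 ± 1.14 (SD, n = 4 IPs). The comparison of the change from L1 to L3 with it gave p = 0.625 (exact two-sided permutation test over the pairs). With 4 pairs this test cannot give a p under 0.125, so it could not have shown that the changes differed. Laser power, which the scanner recorded, was 4.23 for the ALG-1 IP at L1 and 3.48 at L3, 4.16 at both stages for the ALG-2-Tag IP, 3.91 and 3.93 for the ALG-1 control IP, and 4.17 and 4.15 for the ALG-2-Tag control IP. Its part in the lower signal of the ALG-1 IP was not tested. In bulk extracts such as these, fewer cells that express a microRNA and less of it per cell cannot be told apart, nor can either be told from a lower yield of the IP.

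**Figure D1:**
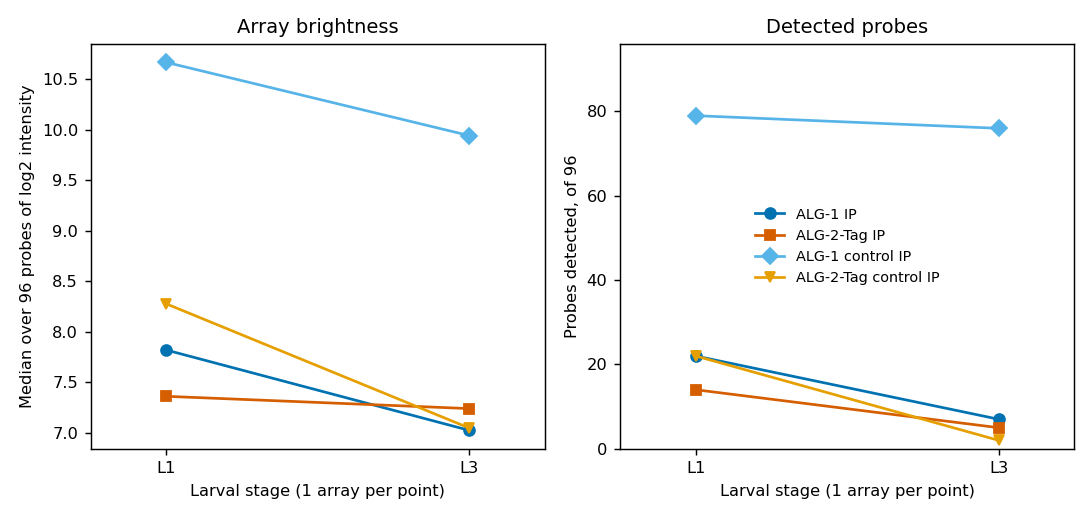
Median over the 96 probes of the log2 intensity (left) and number of detected probes of 96 (right) on each of the 8 arrays, with the L1 and L3 arrays of an IP joined by a line. All 4 lines fall in both panels, by 0.12 to 1.23 on the log2 scale and by 3 to 20 probes.

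Fewer probes were detected at L3 than at L1 with all 4 IPs. The ALG-1 IP had 22 of the 96 probes detected at L1 and 7 at L3. The numbers were 14 and 5 in the ALG-2-Tag IP, 79 and 76 in the ALG-1 control IP, and 22 and 2 in the ALG-2-Tag control IP. The mean difference was -11.75 ± 7.37 probes (SD, n = 4 IPs), again at the smallest p the design allows (exact two-sided permutation test over the pairs, p = 0.125). Between L2 and L4 the mean difference was also -11.75, with an SD of 18.2 (exact two-sided permutation test of the changes over the pairs, p = 1). With 4 pairs this test too could not have shown that the changes differed.

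In 3 of the 4 IPs the L3 set lay inside the L1 set. Every probe detected at L3 in the ALG-1 IP (7), the ALG-2-Tag IP (5) and the ALG-2-Tag control IP (2) had been detected at L1, and no probe was gained. In the ALG-1 control IP, 73 probes were detected at both stages, 6 at L1 alone and 3 (emc01, emc10 and emc78) at L3 alone. The probes that stayed detected had a higher median signal at L1 than those that were lost, in all 4 IPs. Detection depends on brightness and signal was lower at L3, so this order could hardly have been otherwise and is only a description. In the ALG-1 IP, emc88 and emc69 stayed narrowly, with 51.4% and 50.5% of pixels at L3. Of the 7 that stayed in the ALG-1 IP, 6 were among its 7 brightest probes at L1, with a median log2 intensity at L1 of 10.20, against 8.88 for the 15 that were lost. In the ALG-2-Tag IP 3 of 5 were among its 5 brightest (medians of 10.20 and 9.35), and in the ALG-1 control IP 71 of 73 were among its 73 brightest (11.13 and 9.28). In the ALG-2-Tag control IP 1 of 2 was among its 2 brightest, and the medians were 10.35 for the 2 that stayed and 9.54 for the 20 that were lost. Lists of lost probes can overlap only as far as the L1 sets do. The ALG-1 IP and the ALG-2-Tag control IP, with 18 probes detected at L1 in both, shared 11 lost probes. These were 73.3% of the 15 lost from the first and 55% of the 20 lost from the second. Most probes were lost from each, 15 of 22 and 20 of 22, so many shared losses would arise without any link between the lists. The ALG-1 IP and the ALG-2-Tag IP, with 3 in both at L1, shared 1 lost probe. No probe was detected on all 8 arrays, and 14 were detected on none of them. Probe emc04, picked out because it was detected on 7 of the 8, had log2 intensities of 9.99, 9.70, 12.91 and 9.80 at L1 and of 9.53, 9.23, 12.10 and 8.60 at L3 (ALG-1 IP, ALG-2-Tag IP, ALG-1 control IP and ALG-2-Tag control IP). It was lower at L3 with each IP, and the 2 stages overlapped across IPs.

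Probe by probe, the differences between L3 and L1 ran down in 3 IPs and were balanced in the ALG-2-Tag IP. In the ALG-1 IP 87 of the 96 probes were lower at L3, with a median difference of -0.56 on the log2 scale and a range of -2.29 to 0.17. In the ALG-1 control IP 85 were lower (median -0.64, range -3.32 to 1.30), and in the ALG-2-Tag control IP 91 were lower (median -1.06, range -2.46 to 0.60). In the ALG-2-Tag IP 54 were lower and 42 higher, with a median of -0.11 and a range of -2.44 to 1.81. On that array pair 134 of the 768 spots at L1 and 112 at L3 lay below the local background, and 82 of the 96 probes were detected at neither stage. Its 5 probes detected at both stages had a median difference of -0.70, and those detected at neither had one of 0.02. In the other IPs too the median was lower among probes detected at both stages than among those detected at neither. It was -1.003 against -0.48 in the ALG-1 IP, -0.73 against -0.31 in the ALG-1 control IP and -1.58 against -0.88 in the ALG-2-Tag control IP. A value near background has little room to fall on this scale, so these contrasts are given as a description only.

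Counted over all 96 probes, with no test because there was 1 array on each side, 29 (30.2%) were at least 2-fold lower at L3 in the ALG-1 IP. The counts were 8 (8.33%) in the ALG-2-Tag IP, 16 (16.7%) in the ALG-1 control IP and 52 (54.2%) in the ALG-2-Tag control IP. In the opposite direction, at least 2-fold higher at L3, there were 0 (0%), 1 (1.04%), 1 (1.04%) and 0 (0%) in the same order. With each array centred on its own median, the counts lower were 4, 7, 2 and 1 and those higher 0, 1, 4 and 6. Centring thus lowered the counts in 3 IPs and left that of the ALG-2-Tag IP, whose median was close at the 2 stages, almost as it was. Among the probes detected on at least 1 array of the pair, 15 of 22, 7 of 14, 16 of 82 and 21 of 22 were at least 2-fold lower. A probe admitted by its L1 signal alone could hardly be higher at L3, so these counts are given as a description only. For a probe detected on 1 array of a pair, the undetected value was replaced by the higher of its own value and the lowest signal among detected probes of that array, which gives a fold of "at least" that size. That bound was at least 2-fold for 2 of the 15 probes lost from the ALG-1 IP, 1 of 9, 1 of 6 and 9 of 20.

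**Figure D2:**
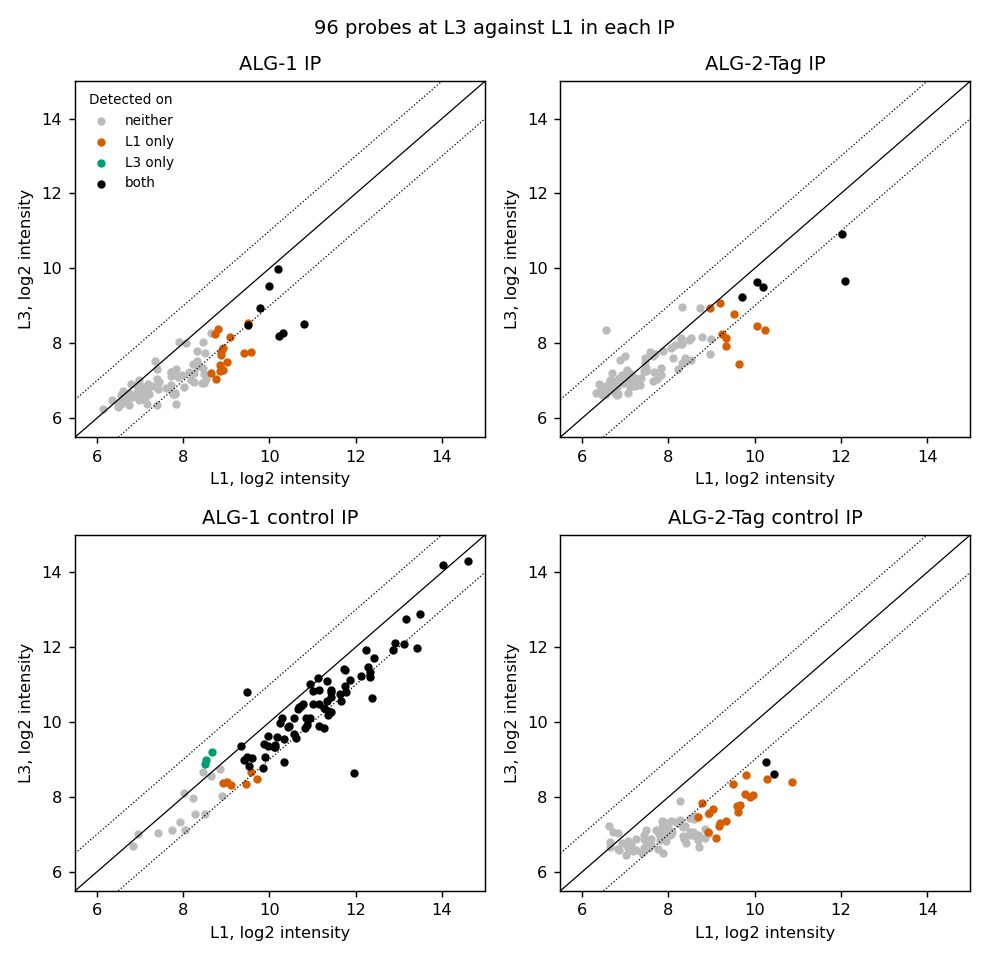
Log2 intensity of the 96 probes at L3 (vertical) against L1 (horizontal) in each IP, coloured by the stages at which the probe was detected. The solid line marks equal values and the dotted lines 2-fold differences, and probes detected at L1 only (orange) lie below the solid line.

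The probes with the widest differences within an IP were read spot by spot, because their spots did not always agree. In the ALG-1 IP, emc88 had a median spot intensity of 1713 at L1 and 703 at L3, and a log2 value of 10.81 and 8.51, which is 4.90-fold lower at L3. Its 4 spots in blocks 1 and 2 gave 1349 to 1708 at L3, close to the 1489 to 1883 seen there at L1. Its 4 spots in blocks 3 and 4 gave 25 to 57, against 1597 to 2243 at L1. The fold therefore mixes spots with little change and spots near background on 1 array. Probe emc69 showed the same split, with a log2 difference of -0.25 in blocks 1 and 2 and of -3.85 in blocks 3 and 4, and an overall value 4.14-fold lower. In the ALG-2-Tag control IP, emc88 was detected at L1 alone, with intensities of 1967 and 410, and was at least 4.78-fold lower at L3. There its log2 differences in blocks 1 to 4 were -0.27, -2.97, -2.16 and -4.45, lower in each block and far apart between blocks, as in the ALG-1 IP. Probe emc80 of that IP went from 1413.5 to 522.5 (3.57-fold lower), with differences of -0.17, -2.85, -1.23 and -3.08 in blocks 1 to 4 and L3 spots of 16 to 1165.

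In the ALG-1 control IP emc45 had the widest difference of any probe in any IP, with intensities of 3854 at L1 and 1035 at L3 and a log2 difference of -3.32 (9.98-fold lower). Its L3 spots in blocks 1 and 2 read 2068 to 2669, and those in blocks 3 and 4 read -29 to 2, that is, no signal over background, whereas at L1 all 8 spots read 3621 to 5326. In blocks 1 and 2 alone the difference was -0.75, where the median of the array differed by -0.42. Probe emc43, by contrast, was lower in all 4 blocks. It had an intensity of 5059.5 at L1 and 1577.5 at L3 (3.36-fold lower), with log2 differences of -1.61 in blocks 1 and 2 and -1.89 in blocks 3 and 4. The only detected probe at least 2-fold higher at L3 in any IP was emc02, again in the ALG-1 control IP. Its 8 spots read 623 to 952 at L1 and 1447 to 2371 at L3, without overlap, and it was 2.47-fold higher, with a log2 difference of 1.30 against a fall of 0.72 for the median of that array. In the other IPs emc02 was detected on at most 1 more array, and its differences were -0.36 in the ALG-1 IP, -0.24 in the ALG-2-Tag IP and -0.95 in the ALG-2-Tag control IP.

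Of the 7 detected probes at least 2-fold lower in the ALG-2-Tag IP, 2 were detected at both stages and the other 5 at L1 alone. Of the former, emc30 had intensities of 4114.5 and 1819 and was 2.16-fold lower, with L1 spots of 2942 to 5700 and L3 spots of 1420 to 2515. These spots did not overlap, and the difference was -1.36 in blocks 1 and 2 and -0.86 in blocks 3 and 4. In the ALG-1 control IP, where emc30 was among the brightest probes, its log2 value was 14.02 at L1 and 14.18 at L3, so it was not lower there. Probe emc31, with log2 values of 14.60 at L1 and 14.31 at L3 in the ALG-1 control IP, went from 5125 to 832 in the ALG-2-Tag IP (5.42-fold lower). Its differences in the ALG-2-Tag IP were -3.34, -0.86, -4.54 and -1.01 in blocks 1 to 4, and -2.10 and -2.78 in the block pairs. Its L1 spots fell into sets of 8128 to 15602 in blocks 1 and 3 and of 1270 to 2122 in blocks 2 and 4, and its L3 spots read 274 to 1270. The size of this difference thus depended on the blocks read, and the direction did not. The 1 probe at least 2-fold higher in this IP was emc88, named after its values were seen, with log2 values of 6.56 and 8.37 and detection at neither stage.

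**Figure D3:**
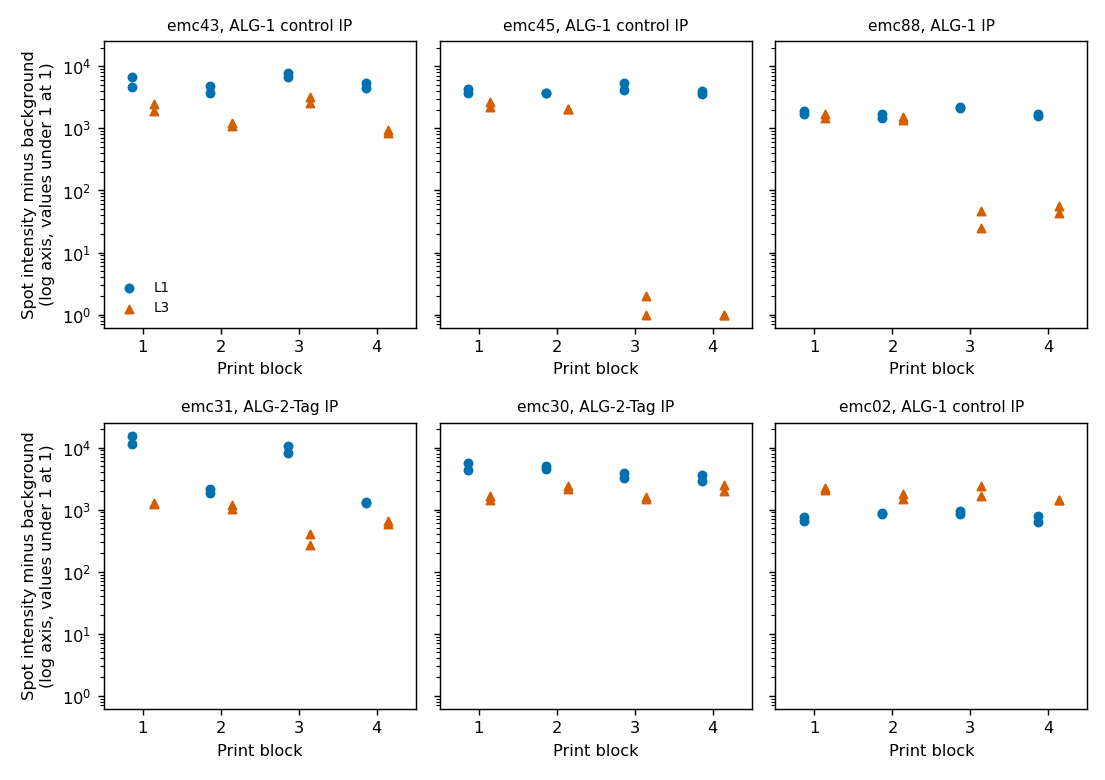
Deposited intensity (log axis) of the single spots of 6 probe and IP pairs at L1 (circles) and L3 (triangles), by print block. For emc43, emc30 and emc02 the stages are apart in all 4 blocks, for emc45 and emc88 only the L3 spots of blocks 3 and 4 are near background, and for emc31 the distance depends on the block.

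Blocks 1 and 2 were then compared with blocks 3 and 4 for all probes, an approach chosen after these spots had been seen. For each block, the median over its spots was taken at L3 and at L1. In the ALG-1 IP the L3 median minus the L1 median was -0.18 and -0.15 in blocks 1 and 2 but -1.83 and -1.57 in blocks 3 and 4. In blocks 1 and 2, 20 probes were detected at L1 and 11 at L3, while in blocks 3 and 4 there were 24 and 2. No spot of the L3 array lay below background in blocks 1 and 2, and 19 did in blocks 3 and 4. At least 2-fold lower signal was found for 3 probes in blocks 1 and 2 and for 54 in blocks 3 and 4, with 3 in both. The lower signal of the ALG-1 IP at L3 was therefore mostly that of 2 of the 4 blocks of 1 array. Within that array, 7 probes (emc69, emc80 and emc88 among them) differed more than 4-fold between the block pairs, all dimmer in blocks 3 and 4, against 0 on its L1 array and at most 2 on any of the other 6 arrays. The rank correlation between the block pairs over the 96 probes was 0.51 on this array, against 0.87 at L1. In the ALG-2-Tag control IP it was 0.61 at L3 and 0.81 at L1. It was 0.73 and 0.87 in the ALG-2-Tag IP, and 0.94 and 0.98 in the ALG-1 control IP.

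In the other IPs the block pairs were closer, but they also differed. In the ALG-1 control IP, 9 probes were at least 2-fold lower in blocks 1 and 2 and 37 in blocks 3 and 4. The counts were 55 and 51 in the ALG-2-Tag control IP and 13 and 9 in the ALG-2-Tag IP. The differences between the L3 and L1 medians of blocks 1 to 4 were -0.38, -0.54, -0.52 and -0.99 in the ALG-1 control IP. They were -0.64, -2.22, -1.33 and -1.57 in the ALG-2-Tag control IP, and -0.65, 0.43, -0.11 and 0.08 in the ALG-2-Tag IP. In the ALG-2-Tag control IP, 25 spots of the L3 array lay below background in blocks 1 and 2 and 2 in blocks 3 and 4. Signal at least 2-fold lower in both block pairs was found for 37 probes in the ALG-2-Tag control IP, 7 in the ALG-2-Tag IP, 6 in the ALG-1 control IP and 3 in the ALG-1 IP. Only emc02 in the ALG-1 control IP was at least 2-fold higher in both. Across probes, the differences of the block pairs had a Spearman's rho of 0.63 in the ALG-2-Tag IP, 0.60 in the ALG-1 control IP, 0.45 in the ALG-2-Tag control IP and 0.41 in the ALG-1 IP. The blocks of an array share its RNA and hybridisation, so these values describe the reading of 1 array and not the spread between IPs.

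**Figure D4:**
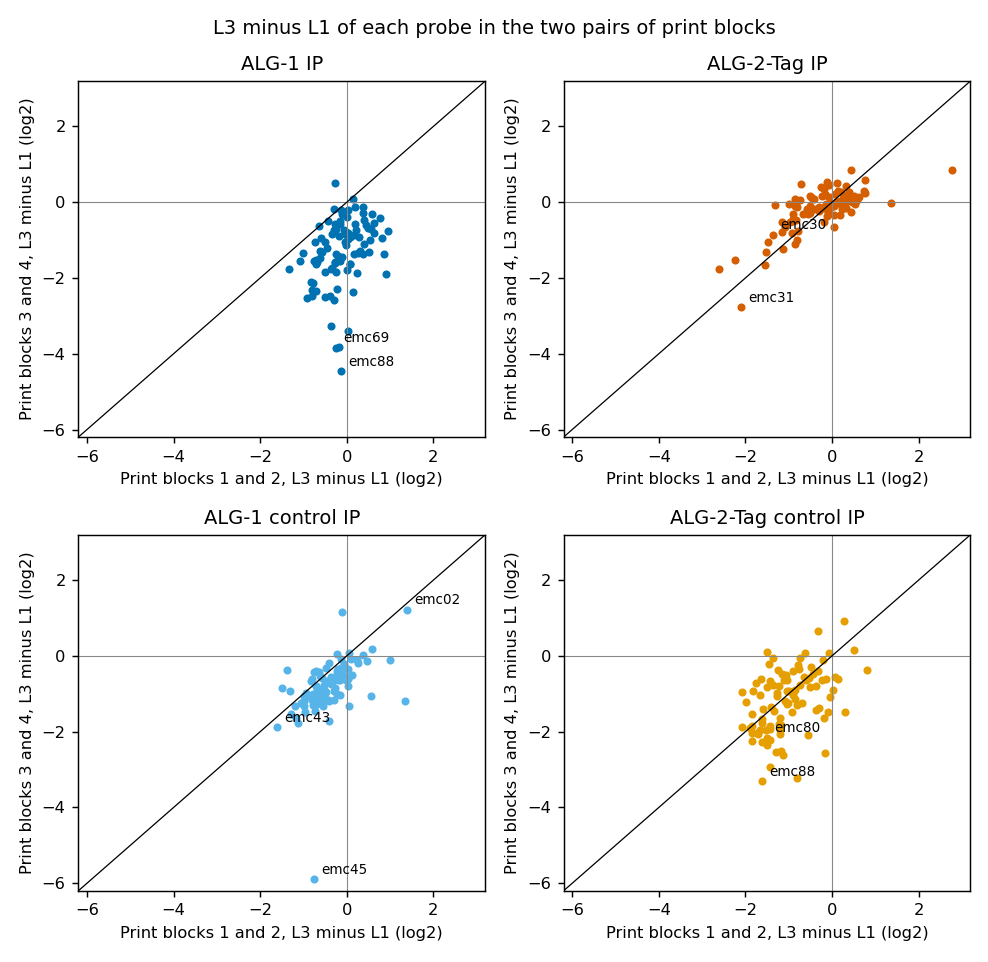
L3 minus L1 difference (log2) of each of the 96 probes in print blocks 3 and 4 (vertical) against blocks 1 and 2 (horizontal), by IP, with the named probes of that IP labelled. In the ALG-1 IP, 94 of the 96 points lie under the line of equal differences, with values of -1.34 to 0.96 across and down to -4.46. In the ALG-1 control IP 81 lie under it and in the ALG-2-Tag control IP 59, whereas in the ALG-2-Tag IP 54 lie above it.

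Across the IPs, 44 of the 96 probes (45.8%) were lower at L3 in 4 of 4, 42 in 3, 6 in 2, 3 in 1 and 1 in none. Within the single IPs 87, 54, 85 and 91 were lower, so many probes lower in all 4 would arise without any link between IPs. In a fit to all 16 arrays, which modelled the IP and the stage, 0 of the 96 probes (0%) differed between L3 and L1 (limma, adjusted p under 0.05), while 12 had an unadjusted p under 0.05, all lower at L3. The fitted difference was below 0 for 95 probes, with a median of -0.60 and a median 95% interval of ± 0.99, and the smallest adjusted p was 0.267. Intervals of that width lay within 2-fold either way for 2 probes, so the fit could not show that the others were alike at the 2 stages. Probe emc45 had the largest fitted difference, -1.46 (standard error 0.53, limma adjusted p = 0.267), which rests in good part on the spots of the ALG-1 control IP described above. Next came emc43, at -1.30 (standard error 0.49, limma adjusted p = 0.267). Its log2 values at L1 were 8.24, 8.54, 12.38 and 8.69 and at L3 6.98, 7.56, 10.63 and 7.47 in the order of IPs used above, lower at L3 in 4 of 4. It was detected at both stages in the ALG-1 control IP, at L1 alone in the ALG-2-Tag control IP and at neither stage in the Argonaute IPs, so that most of these differences involve values below detection. In the ALG-1 IP it differed by -0.23 in blocks 1 and 2 and by -2.29 in blocks 3 and 4.

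With each array centred on its median, which removes its overall brightness, the differences were spread to both sides. Again 0 of 96 probes (0%) were called (limma), 5 had an unadjusted p under 0.05 (4 higher and 1 lower), 46 differences were below 0 and 50 above, and the smallest adjusted p was 0.473. The median 95% interval was ± 0.56, and for 72 probes it lay within 2-fold either way. Probe emc43 remained lower in 3 of 4 IPs, at -0.58 (standard error 0.21, limma adjusted p = 0.473). Probe emc12 had the largest centred difference upward, 0.87 (standard error 0.31, limma adjusted p = 0.473), and lay below detection on all 8 arrays. Relative to the median of their arrays, 8 probes were lower in 4 of 4 IPs and 18 in none. Among the 18 were emc07, emc08, emc12, emc82, emc83, emc84, emc89, emc91, emc93 and emc96, which were detected on none of the 8 arrays. Probes detected at neither stage had differed less before centring, so centring tends to place them on the higher side.

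**Figure D5:**
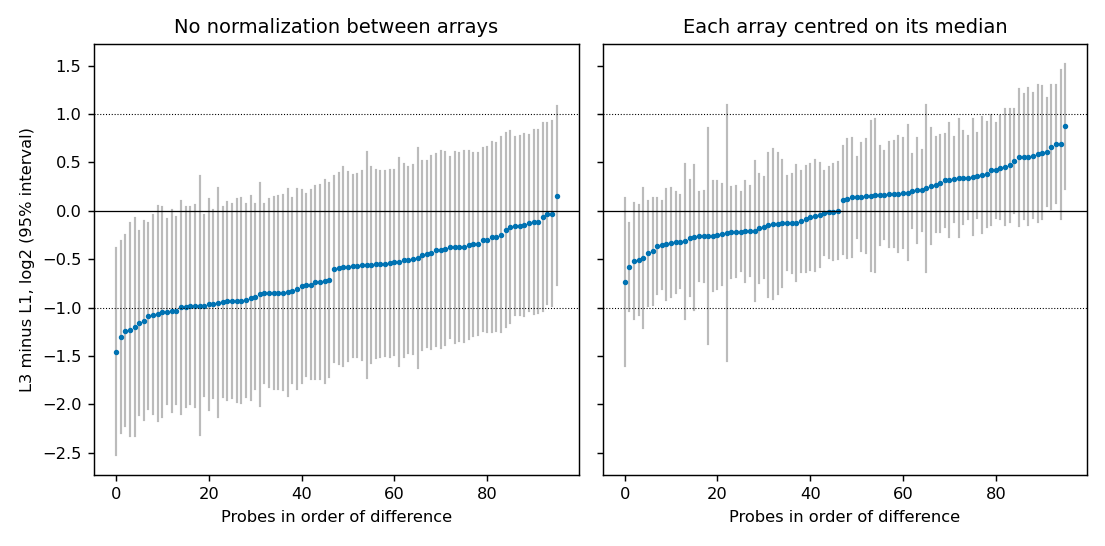
Fitted L3 minus L1 difference (log2, points) of the 96 probes with 95% intervals (grey bars), in order of size, without normalization between arrays (left) and with each array centred (right); dotted lines mark 2-fold. Without normalization 95 of 96 points lie below 0, with centring 46 do, and 0 probes passed the adjusted threshold in either fit.

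The result without normalization depended on which arrays set the spread. When the fit held the 8 L1 and L3 arrays alone, 33 of the 96 probes (34.4%) were lower at L3 and 0 higher (limma, adjusted p of 0.0427 to 0.0495), and 45 had an unadjusted p under 0.05. The differences of the 33 ran from -1.46 to -0.73 with a median of -0.98. Of these probes, 28 were lower in 4 of 4 IPs and 5 in 3, against 44 and 42 of all 96. The call uses the mean of the same differences, so this count is only a description. Of the 33, 12 were detected on at least 4 of the 8 arrays and 21 on 1 to 3, so most calls involve values below detection. Of all 96 probes, 13 were detected on 4 arrays, 6 on 5, 2 on 6 and 1 on 7. Among the called probes lower in all IPs, emc45 (-1.46) and emc43 (-1.30, standard error 0.25, limma adjusted p = 0.0427) had the largest differences. The call rested on single IPs and on single block pairs. Without the arrays of the ALG-1 IP, of the ALG-1 control IP or of the ALG-2-Tag control IP, 0 probes passed (limma), though 29, 30 and 22 had an unadjusted p under 0.05, and without those of the ALG-2-Tag IP 55 passed. From the spots of blocks 1 and 2 alone, 0 passed (limma, smallest adjusted p = 0.0678, 25 with an unadjusted p under 0.05), and from those of blocks 3 and 4, 22. With centring, 0 probes passed on the 8 arrays (limma, smallest adjusted p = 0.178, 12 with an unadjusted p under 0.05).

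The change between the stages was next compared between kinds of IP, which asks whether the Argonaute IPs changed beyond their controls. For this difference 0 of 96 probes (0%) passed (limma, smallest adjusted p = 0.985, 2 with an unadjusted p under 0.05), with the arrays centred. The median 95% interval was ± 1.14 on the log2 scale, wider than a 2-fold difference, so changes of that size could not be seen. Between the ALG-1 and the GFP antibody 0 of 96 (0%) passed as well (limma, smallest adjusted p = 0.996, 0 with an unadjusted p under 0.05). The change from L1 to L3 against that from L2 to L4 gave 0 of 96 (0%) too (limma, smallest adjusted p = 0.990, 0 with an unadjusted p under 0.05), with intervals within 2-fold for 48 probes.

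In the ALG-2-Tag IP and the ALG-1 control IP the L1 and L3 profiles were more alike than either was to an array of another IP at its own stage. Over the 96 probes, Spearman's rho between L1 and L3 of the same IP was 0.86 in the ALG-1 IP, 0.85 in the ALG-2-Tag IP, 0.92 in the ALG-1 control IP and 0.71 in the ALG-2-Tag control IP. Between different IPs of the same stage it ran from 0.13 to 0.86 over 12 pairs of arrays, with a median of 0.43. The arrays of the ALG-2-Tag control IP were more like those of the ALG-1 IP of the same stage (0.86 at L1 and 0.77 at L3) than like each other, and the L1 array of the ALG-1 IP was as like that control as its own L3 array. Between different IPs of different stages it ran from 0.10 to 0.81, with a median of 0.42. The centred L3 minus L1 differences of the ALG-1 IP and the ALG-2-Tag control IP were alike across probes (rho of 0.65), and the other 5 pairs of IPs had a rho of -0.11 to 0.26. In those 2 IPs 7 and 2 probes were detected at L3. Where L3 values lie near background, the difference largely mirrors the L1 value. Alike L1 profiles (0.86) could thus give alike differences without a shared change between stages. All these rho values are descriptions across probes, which are not independent replicates and share the print layout of the slides.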

How the data were processed

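Small RNA from 16 IPs was hybridised to single-colour arrays, and the L1 and L3 arrays were compared here. The authors deposited the intensity of 768 spots per array at 532 nm, as written by GenePix Pro 4.0.1.19 with the local background subtracted, at a scanner gain of 790 and without normalization between arrays. The deposited files also hold the percent of pixels above background plus 2 SD and a flag score for each spot. A table of the authors' processed intensity values was used as an alternative. R 2.13.1 and limma are named in the submitters' processing notes. Of the spots, 57 flagged bad (9 on the 8 arrays) were left out. With limma 3.58.1 in R 4.3.3 the intensities were background-corrected (normexp, offset 50), put on the log2 scale and averaged over the spots of a probe. Arrays were not normalized, or were centred on the median of the 96 probes. Fits used all 16 arrays (9 residual degrees of freedom, 6 for differences between kinds of IP) with Benjamini-Hochberg adjustment over 96 probes and a threshold of 0.05. Only the fits to centred values of the 16 arrays were tried on simulated data, which had independent noise and no differences between print blocks. The fit without normalization and the fits to 8 arrays were not tried in this way.

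Arrays were grouped by their titles. Named probes were, for each fit, the 2 largest called changes in each direction shared by all IPs, for each IP the 2 largest differences beyond 2-fold in each direction among probes detected there, and any probe detected on all 8 arrays. Those named outside this rule are said to be so, carry the smallest adjusted p of a fit, or are listed only as members of a count. Alternatives were another offset or correction, other detection rules, normalizations and folds, the 8 arrays alone and leaving out each IP. Print blocks, and alternatives of the fit to 8 arrays, were tried after the data had been seen. The comparison, its tests and the probes were chosen with earlier results of these data known. Signal over background and the number of arrays limit the precision. How the authors scaled their processed values is not stated in the sources read for this work.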

Additional observations from a re-analysis of the deposited data

How the results depend on the processing

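Lower brightness and fewer detected probes at L3 kept their direction under every alternative run, with mean differences of -1.01 to -0.47 in brightness and of -24.5 to -8.75 probes, and of -0.92 to -0.55 and -14.7 to -9 when an IP was left out; in the deposited intensities 3 of 4 IPs were dimmer. The fit to 16 arrays without normalization called 0 probes under its other alternatives and 33 on the 8 arrays alone, where emc43, emc45 and emc04 passed. The fit to 8 arrays, whose alternatives were chosen after the data had been seen, called 0 to 55 probes when an IP was left out, 0 with blocks 1 and 2, 0 with an offset of 0 (44 with an unadjusted p under 0.05), 0 without the further background correction (24 with an unadjusted p under 0.05), and 3 with an intensity trend (limma; emc35, emc43 and emc70). The cause was not tested. The centred fit, the comparison of antibodies and that with L2 and L4 called 0 probes under every alternative run, and the comparison of IPs with controls 0 to 1 when an IP was left out. That call was emc73, lower by -2.71 without the ALG-1 IP (limma adjusted p = 0.0306), with the ALG-2-Tag IP alone on the Argonaute side and assumed to vary like the others. Counts of detected probes at least 2-fold lower within an IP fell with centring from 15 to 4 (ALG-1 IP), 16 to 2 (ALG-1 control IP) and 21 to 1 (ALG-2-Tag control IP). With detection at 75% of pixels they were 6, 4 and 11 in the ALG-1 IP, ALG-2-Tag IP and ALG-2-Tag control IP, and beyond 4-fold 3, 2, 1 and 3 in the 4 IPs. Near background, where most probes of 3 IPs lay at L3, small differences could not be seen.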
